A study of Homo sapiens with 4 samples.

Results

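Binding of the nuclear receptor ERRα was examined at 8 human genes that encode the catalytic head of the mitochondrial ATP synthase, the factors that assemble it and its inhibitor. The 8 genes, out of 20033 protein-coding genes in the RefSeq table of GRCh38.p14, were taken by name and not by a rule on measured values. The choice was made with earlier results of these data known. They are ATP5F1A, ATP5F1B, ATP5F1C, ATP5F1D, ATP5F1E, ATPAF1, ATPAF2 and ATP5IF1. Chromatin immunoprecipitation with sequencing (ChIP-seq) had been carried out in MDA-MB-231, an established and invasive human breast cancer line, with no treatment named in the labels, to identify genes bound by ERRα. The series holds 2 ERRα ChIP replicates, precipitated with 5 µg of an ERRα antibody after fixation in 1% formaldehyde, and 2 input libraries of the same fixed chromatin without antibody. Paired reads of 81 bp numbered 29000000 in ERRα libraries and 10000000 in input libraries, as read from a label that prints them without an exponent sign.

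ATP synthase makes ATP in the inner mitochondrial membrane, driven by the flow of protons back into the matrix. Its F1 head projects into the matrix and carries a ring of alternating α and β subunits, inside which a central stalk of γ, δ and ε subunits turns. ERRα is an orphan nuclear receptor that acts with the coactivators PGC-1α and PGC-1β on many genes of mitochondrial respiration, and it binds as a monomer or dimer to the ERR response element, an extended form of the AGGTCA hexamer that nuclear receptors recognise. The measurements are of binding to DNA in a single cell line. Expression of the 8 genes was not measured, and the identity of the cells could not be checked against expressed markers.

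The authors deposited 1 peak list per ChIP replicate, both called against the same 2 inputs, and another in which peaks of the replicates are matched. Replicate 1 had 14072 peaks and replicate 2 had 12659 on chromosomes 1 to 22, X and Y, and 10059 were matched. A matched peak is called reproducible here when its irreproducible discovery rate (IDR) is at most 0.05, a score of at least 540, which left 5070. Fold enrichment is a ratio that the authors give for each peak, of the ChIP signal over the local input background at the summit (its highest point). Each mean is over 2 replicates and is given with its SD, which at n = 2 is itself imprecise. With 2 ChIP libraries and no second condition, no comparison between conditions could be tested, and the counts below are descriptions.

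The sequences around 4 start sites are shown because they carry the contrasts among the genes: a start beneath a reproducible peak and another without one in the same gene (ATP5F1A), a start wholly covered by a weak reproducible peak (ATP5F1E), and a start at which the replicates matched below the reproducibility threshold (ATP5F1C). Each runs from 250 bases before to 50 bases after the start, 5′ to 3′ on the gene's own strand, as RefSeq gives it on GRCh38.p14. Capitals mark the nuclear receptor hexamer AGGTCA in ATP5F1A, CCAAT boxes in ATP5F1E and the core GCGCATGCG of the nuclear respiratory factor NRF1 in ATP5F1C, on either strand. The intervals are chr18:46098247-46098546 (minus strand) for the inner start of ATP5F1A, chr18:46104178-46104477 (minus strand) for its outer start, chr20:59032286-59032585 (minus strand) for ATP5F1E and chr10:7787927-7788226 (plus strand) for ATP5F1C.
ATP5F1A inner start: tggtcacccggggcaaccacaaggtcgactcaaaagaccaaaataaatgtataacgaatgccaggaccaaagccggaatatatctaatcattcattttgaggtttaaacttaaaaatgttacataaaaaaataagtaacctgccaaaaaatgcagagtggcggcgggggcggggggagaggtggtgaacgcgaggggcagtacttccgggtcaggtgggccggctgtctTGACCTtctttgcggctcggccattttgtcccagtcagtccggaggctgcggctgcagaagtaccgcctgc
ATP5F1A outer start: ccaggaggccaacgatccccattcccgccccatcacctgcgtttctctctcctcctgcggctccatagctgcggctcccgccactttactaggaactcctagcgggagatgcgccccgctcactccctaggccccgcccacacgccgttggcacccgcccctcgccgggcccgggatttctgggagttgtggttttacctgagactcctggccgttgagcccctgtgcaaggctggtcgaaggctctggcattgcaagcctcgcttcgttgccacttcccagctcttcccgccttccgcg
ATP5F1E start: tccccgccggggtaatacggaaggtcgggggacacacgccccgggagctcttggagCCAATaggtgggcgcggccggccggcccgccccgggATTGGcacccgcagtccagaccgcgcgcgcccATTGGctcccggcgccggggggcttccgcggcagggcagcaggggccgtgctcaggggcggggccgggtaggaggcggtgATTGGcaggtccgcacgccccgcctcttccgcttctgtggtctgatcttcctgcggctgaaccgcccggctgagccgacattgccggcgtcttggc
ATP5F1C start: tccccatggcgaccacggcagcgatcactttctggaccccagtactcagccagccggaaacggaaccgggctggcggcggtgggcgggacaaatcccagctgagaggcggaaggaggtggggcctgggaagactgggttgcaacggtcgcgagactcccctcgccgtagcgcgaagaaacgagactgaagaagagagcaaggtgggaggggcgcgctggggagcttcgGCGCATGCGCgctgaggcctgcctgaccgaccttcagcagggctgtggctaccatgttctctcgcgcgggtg

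The inner ATP5F1A window is the one among the 10 windows of these genes with the hexamer. It lies 21 to 16 bases before the start, at chr18:46098312-46098317, and reads TGACCT on the gene's strand. A core of ETS factors, CCGGAAG, lies close by, 48 to 42 bases before the start and also in reverse. Both lie within the matched interval, which covers 179 of the 300 bases. Only the replicate 2 peak, which ended at 46098425, reached them. The replicate 1 peak ended at 46098275, short of both words and of the start at 46098296. The outer ATP5F1A window, which has no base beneath a matched peak, holds neither word. In ATP5F1C the NRF1 core matches on both strands, 1 base apart, and the 2 overlapping matches span 22 to 13 bases before the start, within the 122 bases covered by its weaker peak. ATP5F1E has 4 CCAAT boxes, at which the factor NF-Y is known to bind, in a window with 74% G and C. All 300 bases of that window lie within its matched interval and beneath the replicate 2 peak, but the replicate 1 peak ended at 59032394. Of the 4 boxes, only the one 46 to 42 bases before the start lies beneath the peaks of both replicates. None of the 4 windows holds a matched summit. The nearest lies 440 bp from the inner ATP5F1A window, 132 bp from that of ATP5F1C, 112 bp from that of ATP5F1E and 6371 bp from the outer ATP5F1A window, measured from the nearer edge of each window.

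The ERR response element, searched as TNAAGGTCA on both strands, was found in 0 of the 6 genes with windows in the table. Over all genes it was present in 12.0% of the 166 start windows that hold a reproducible summit and in 0.672% of all 22182 windows. For the stricter TCAAGGTCA the shares were 7.23% and 0.243%, again with 0 of the 6 genes. The hexamer AGGTCA, which is contained in both elements, was present in 56.6% of windows with a summit and 11.9% of all windows, and in ATP5F1A among the 6 genes. With up to 1 mismatch to the element, windows of ATP5F1A and ATP5F1C matched, as did 57.2% of windows with a summit and 13.9% of all windows, a search added after the data had been seen. A match is a string of letters and not a measured site, and the absence of one says nothing about the sequence under the summits, which lie outside these windows.

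**Figure D1:**
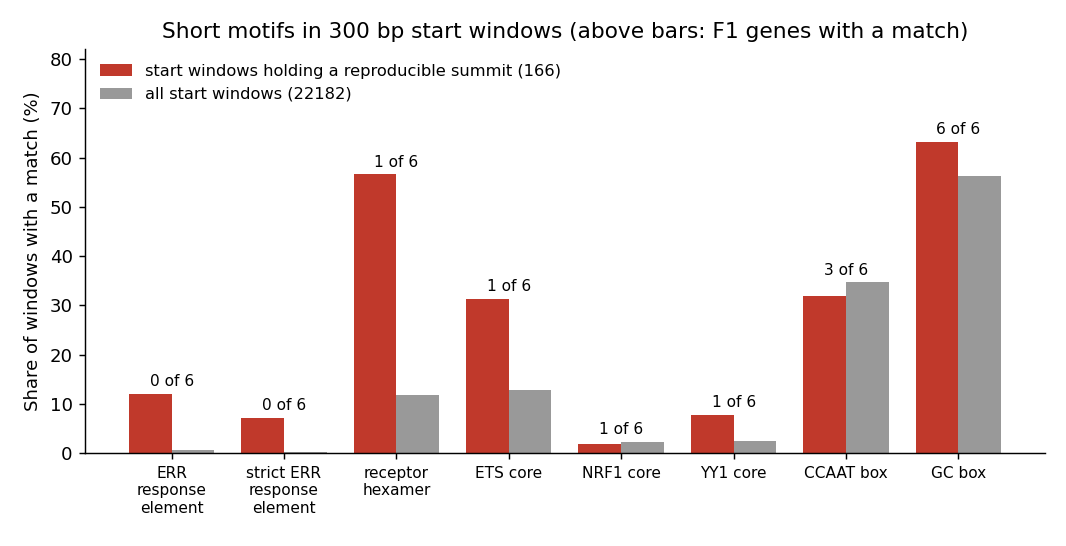
Share of 300 bp start windows, in percent on the vertical axis, that hold each short motif on either strand, for the 166 windows with a reproducible ERRα summit inside and for all 22182 windows. The numbers above the bars give how many of the 6 F1 genes with a window have a match. The receptor hexamer, AGGTCA, stands at 56.6% against 11.9%, and the CCAAT box at 31.9% against 34.7%.

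For the other words the ratio of these shares was smaller. The ETS core was present in 31.3% of windows with a summit and 12.8% of all windows. The core of YY1, AAGATGGCG, stood at 7.83% and 2.41%, and among the 6 genes ATPAF2 has it, 7 to 15 bases after its start. The NRF1 core stood at 1.81% of windows with a summit and 2.36% of all windows. The CCAAT box was present in 31.9% and 34.7%, and in ATP5F1E, ATP5IF1 and ATPAF2. The GC box GGGCGG, a word of many CpG-rich promoters, was present in 63.3% and 56.3%, and in all 6 genes. The bar plot of motif shares shows these pairs side by side.

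Between the 2 subunits of the ring, ERRα enrichment was high at ATP5F1B and below the median of all reproducible peaks at ATP5F1A. ATP5F1B encodes the β subunit, which holds the catalytic nucleotide sites, and lies at chr12:56638175-56645984. Its only peak within 50 kb, at chr12:56645028-56646555, had a fold enrichment of 60.6 in replicate 1 and 65.3 in replicate 2. The summit at 56645786 lay inside the gene, 198 bp from its upper end, and the replicates placed it 19 bp apart. The gene is known to be transcribed toward lower coordinates, which makes the upper end its start. The mean of 62.9 ± 3.27 (SD, n = 2) exceeded that of 97.0% of the 5070 reproducible peaks, at rank 152. The deposited −log10 q values were 279 and 256.

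ATP5F1A encodes the α subunit, which alternates with β in the ring, and lies at chr18:46080248-46104227 with 2 start sites in the table. Its single peak, at chr18:46097339-46098425, had a fold of 11.0 in replicate 1 and 12.5 in replicate 2, a mean of 11.8 ± 1.03. The summit at 46097807 lay 489 bp downstream of the inner start, the one with the hexamer, and 6420 bp from the outer one. A share of 41.5% of reproducible peaks had a lower mean fold, and 31.9% had a lower mean −log10 q. The genes of the 2 ring subunits thus differed by more than the spread of either, with every replicate of ATP5F1B above both of ATP5F1A.

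The 3 subunits of the central stalk each had reproducible peaks, but in different positions. ATP5F1C encodes γ, the shaft that turns inside the ring, and lies at chr10:7788177-7807801. Its stronger peak, at chr10:7796909-7797956, lay inside the gene with its summit 9476 bp downstream of the start. The fold was 24.0 in replicate 1 and 20.5 in replicate 2, a mean of 22.2 ± 2.49, higher than at 80.0% of reproducible peaks. Exon positions were not used here, so the summit cannot be placed in an exon or an intron.

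At the start of ATP5F1C a second, weaker peak was matched, at chr10:7788105-7788732. Its fold was 6.73 in replicate 1 and 6.28 in replicate 2, and its score of 413 fell short of the threshold. The summit lay 181 bp downstream of the ATP5F1C start and 365 bp from that of KIN, which encodes a DNA- and RNA-binding protein, so the peak cannot be assigned to either gene alone. A further peak inside the gene, with a fold of 7.72, was called in replicate 2 alone.

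ATP5F1E encodes ε, a small subunit at the foot of the stalk, and lies at chr20:59025475-59032335. The peak over its start, at chr20:59031057-59032629, had a fold of 8.10 in replicate 1 and 8.73 in replicate 2, a mean of 8.41 ± 0.450, with a score of 661. Its summit lay 161 bp downstream of the start. The peak was low but wide, at 1573 bp against a median of 774 bp over all reproducible peaks. By mean fold 7.57% of reproducible peaks ranked below it, whereas by mean −log10 q 35.3% did, so its place in the list depends on which deposited measure is used.

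The other summits near ATP5F1E belonged by distance to its neighbours. A peak 225 bp from the start of PRELID3B, which encodes a protein of a mitochondrial lipid-transfer family, had folds of 33.7 and 33.0, a mean of 33.4 ± 0.518. This is well above the peak at ATP5F1E itself, and its summit lay 10226 bp upstream of the ATP5F1E start. Another lay 2353 bp from the start of TUBB1, a tubulin of platelets, with a mean of 15.5 ± 1.72. A matched peak 351 bp from the start of CTSZ, a lysosomal protease gene, was not reproducible and had a mean of 5.12.

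ATP5F1D encodes δ, which sits beside ε at the foot of the stalk, and occupies the short interval chr19:1241751-1244825. The peak nearest to it, at chr19:1244479-1245450, had a fold of 17.1 in replicate 1 and 18.5 in replicate 2, a mean of 17.8 ± 0.994. Its summit at 1245056 lay 231 bp beyond the upper end of the gene. ATP5F1D has no start in the table and either end was counted, but the gene is known to be transcribed toward higher coordinates. The summit therefore lies beyond its 3′ end, 3305 bp from its lower end.

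ATP5F1D stood in a dense cluster of summits. With 7 reproducible summits inside or within 50 kb, it had more of them than 99.9% of protein-coding genes, of which 66.3% had 0. The gene at the 95th percentile had 2 and the highest had 10. The strongest of the 7 had folds of 68.5 and 77.3, a mean of 72.9 ± 6.26, which is rank 100 of the 5070. It lay 335 bp from the start of MIDN, which encodes midnolin, a protein that delivers nuclear proteins to the proteasome, and 4093 bp from the upper end of ATP5F1D. A pair of further peaks, 2309 bp and 4921 bp from the MIDN start, had means of 14.6 ± 2.46 and 12.6 ± 2.17, and the replicate 2 value of the more distant one sums 2 peaks, of 5.64 and 8.46.

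The lower side of the ATP5F1D cluster included STK11, which encodes the kinase LKB1, an activator of the energy sensor AMPK. One summit lay 383 bp from the STK11 start, with folds of 10.7 and 10.5, and another 2383 bp from it, with folds of 27.2 and 23.0. Nearest to CBARP, a regulator of calcium channels, a summit 5062 bp from its start had a mean of 8.41 ± 0.492. Another 3 matched peaks in this window were not reproducible, with mean folds between 5.13 and 5.86, near STK11, CIRBP and FAM174C. The interval within 50 kb of ATP5F1D holds 6 other protein-coding genes, and 6 of its 7 reproducible summits were nearer to the start of another gene.

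**Figure D2:**
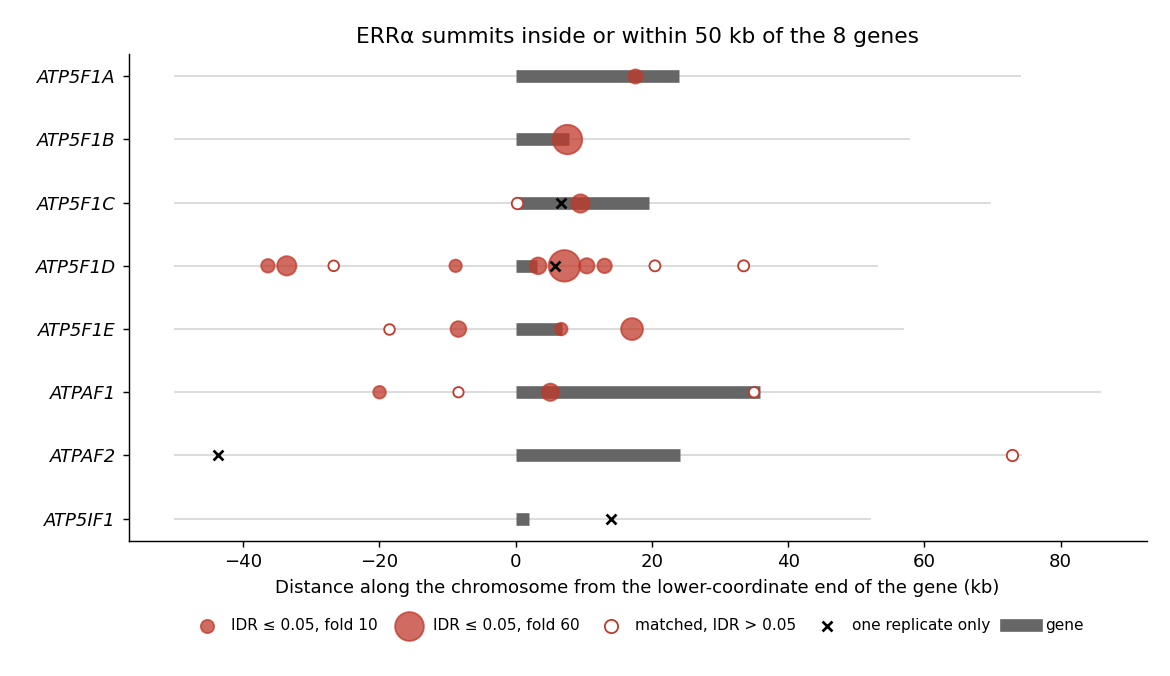
Positions of ERRα summits along the chromosome, in kb from the lower-coordinate end of each gene, for the 8 genes. Grey bars are the genes and thin lines the 50 kb on either side, filled circles are reproducible peaks with area growing with mean fold, open circles are matched peaks above the IDR threshold, and crosses are peaks of a single replicate. ATP5F1D has 7 filled circles, whereas ATPAF2 and ATP5IF1 have 0.

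The map of summits shows the contrast between the crowded ATP5F1D locus and the single peaks of ATP5F1A and ATP5F1B. In all, the 8 genes had 15 reproducible summits inside or within 50 kb, of which 5 lay inside a listed gene. A listed gene had the nearest start for 5 of the 15, and another gene for 10. Their mean folds ran from 8.41 to 72.9 with a median of 15.5, beside a range of 7.50 to 545 and a median of 12.9 over all 5070. A score of 1000, the highest possible, was held by 12 of the 15 and by 3435 of the 5070.

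The 2 assembly factors differed. ATPAF1 encodes a chaperone that holds free β subunits before they join the head, and lies at chr1:46632737-46668557 on the minus strand. Its reproducible peak inside the gene, at chr1:46637476-46638251, had folds of 18.6 and 20.1, a mean of 19.4 ± 1.06. The summit lay near the 3′ end, 5100 bp from the lower end and 28041 bp from the nearest ATPAF1 start. The nearest start of any gene was that of MOB3C, a MOB kinase activator family gene, 21026 bp away. A second reproducible summit, 2366 bp from the MOB3C start and 19970 bp outside ATPAF1, had folds of 9.78 and 7.69.

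At the ATPAF1 start itself the peak was weak. Its folds were 4.890 in replicate 1 and 4.894 in replicate 2, with −log10 q of 4.36 and 4.04 and the lowest score in the matched list, 154. The summit lay 626 bp from the nearest of the 4 ATPAF1 starts. Another matched peak of the same score, 8388 bp outside the gene, had a mean fold of 4.70.

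ATPAF2 encodes the corresponding chaperone of free α subunits and lies at chr17:18015059-18039168. No reproducible summit lay inside it or within 50 kb. A matched peak of folds 6.29 and 6.51 and score 415 lay 48705 bp upstream, at the edge of the window, and 75 bp from the start of DRG2, a gene for a GTP-binding protein. Replicate 1 alone had a further peak on the other side, 43708 bp away, with a fold of 5.17.

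ATP5IF1 encodes the inhibitor that stops the head from hydrolysing ATP when the proton gradient collapses, and lies at chr1:28236124-28238100. It was the gene among the 8 with no matched peak within 50 kb. Replicate 2 alone had a peak 12093 bp beyond the gene, with a fold of 6.85 and a −log10 q of 8.15. The matched summit nearest to its start window was 93373 bp away. No peak call at these genes means that enrichment did not pass the authors' peak caller, and the read depth at them was not available for a limit.

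**Figure D3:**
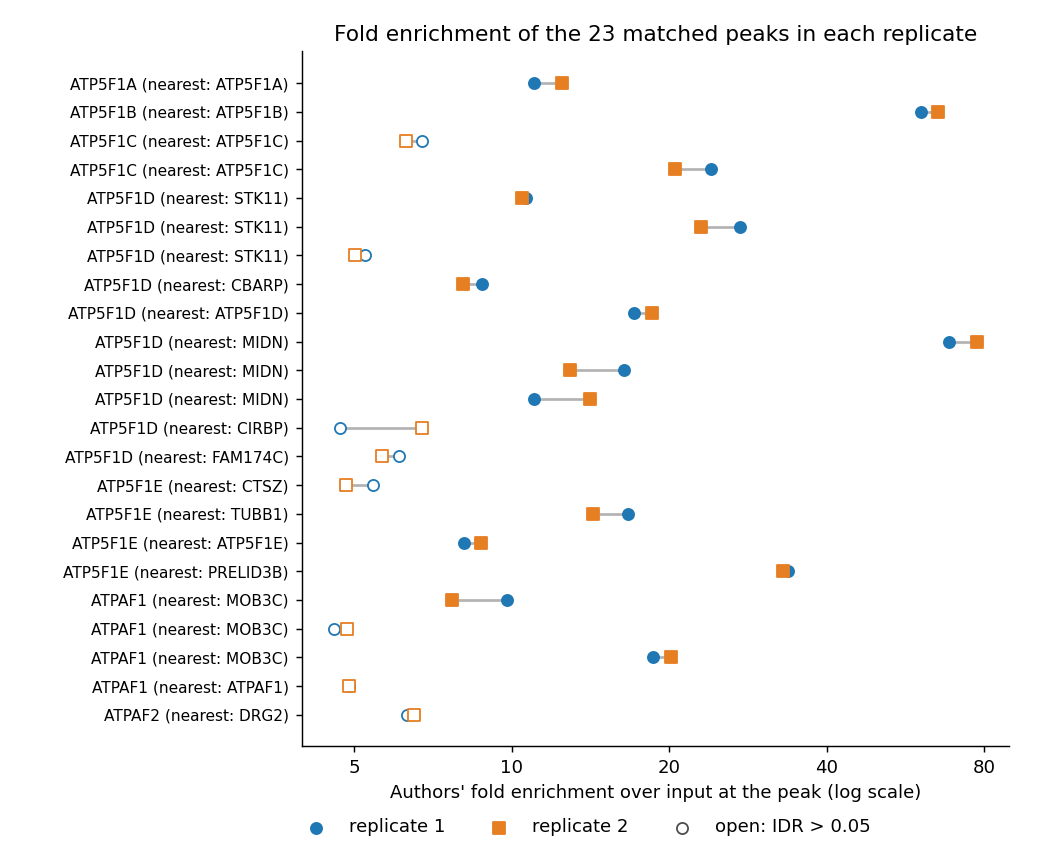
Fold enrichment over input, on a log axis, of the 23 matched peaks inside or within 50 kb of the 8 genes, in replicate 1 (circles) and replicate 2 (squares). Each row names the listed gene and the gene with the nearest start, and open symbols are peaks with IDR above 0.05. The peak at ATP5F1B and the highest of the 3 nearest to MIDN lie above 60 in both replicates, and the open symbols lie below 7.

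For the 6 genes with a reproducible summit, taking the one inside the gene or closest to it, the order by mean fold was ATP5F1B, ATP5F1C, ATPAF1, ATP5F1D, ATP5F1A and ATP5F1E. The order was the same in both replicates. It sets unlike positions side by side. The summits of ATP5F1C and ATPAF1 lie 9476 bp and 28041 bp from their nearest starts, and that of ATP5F1D lies beyond its 3′ end. The matched peaks at the starts of ATP5F1C and ATPAF1, which were not reproducible, had means of 6.51 and 4.89, below all 6 ranked here. ATP5F1B exceeded ATP5F1C by 36.6 in replicate 1 and 44.8 in replicate 2. ATP5F1C exceeded ATPAF1 by 5.34 in replicate 1 but by 0.325 in replicate 2, and the mean difference of 2.83 is close to the SD of 2.49 for ATP5F1C, so these 2 were not told apart beyond their spread. ATPAF1 exceeded ATP5F1D by 1.52 and 1.61, little more than the SD of 1.06 of ATPAF1. ATP5F1D exceeded ATP5F1A by 6.09 and 6.04, and ATP5F1A exceeded ATP5F1E by 2.94 and 3.76, each more than the SDs of the genes compared. By −log10 q, however, ATP5F1A lay below ATP5F1E in replicate 1 (21.1 against 23.4) and in replicate 2 (24.7 against 24.9). The order of these 2 genes thus depends on the measure, whereas the other neighbouring pairs kept their order by −log10 q. The plot of fold by replicate shows the folds.

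At start sites or counted ends, a reproducible summit within 1 kb was found for 4 of the 8 genes (50%), ATP5F1A, ATP5F1B, ATP5F1D and ATP5F1E, beside 863 of all 20033 genes (4.31%). For genes without starts in the table, which include ATP5F1B and ATP5F1D, either end was counted. Among those 4191 genes 3.53% were called, and among the 15842 with start sites 4.51% were, with 2 of the 6 listed genes of that kind. With ATP5F1D taken by its lower end, since its summit lies beyond its 3′ end, the count is 3 (37.5%). ATP5F1A is counted through its inner start, and with the outermost start alone the count is also 3.

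**Figure D4:**
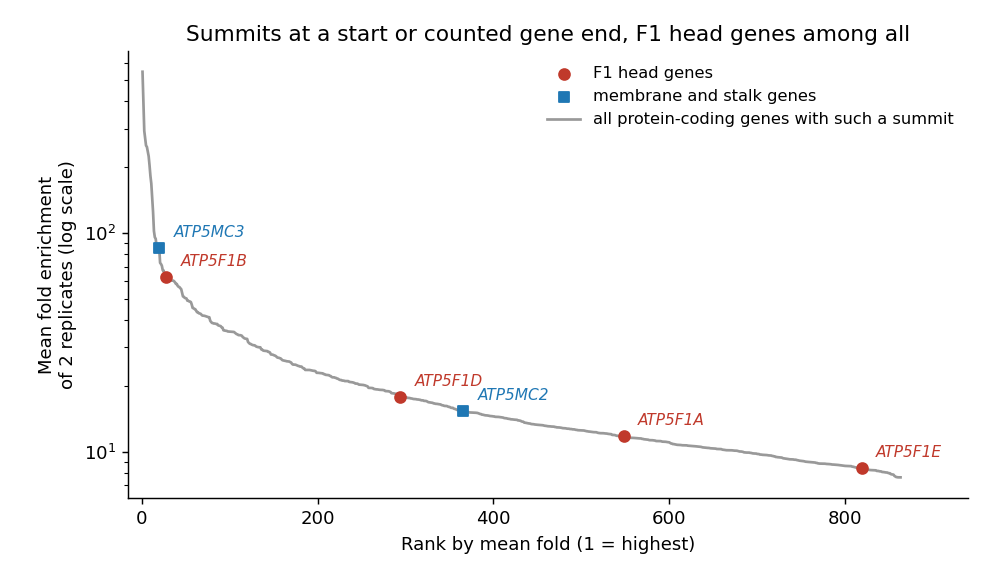
Mean fold enrichment of the peak, on a log axis, against its rank among the 863 protein-coding genes with a reproducible summit within 1 kb of a start or counted end. Circles are the 4 F1 head genes, squares are 2 genes of the membrane part and the line is all 863. ATP5F1B sits at rank 28 and ATP5F1E at rank 819.

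The 863 genes were ranked by the mean fold of this summit at a start or counted end. ATP5F1B was at rank 28. Directly above it stood RARB (64.7 ± 3.03) and MSANTD4 (64.7 ± 3.71), and directly below it ALDOA (62.8 ± 7.02) and COMTD1 (62.0 ± 0.592). RARB encodes a retinoic acid receptor and ALDOA the glycolytic enzyme aldolase A. These neighbours differed from ATP5F1B by less than the spread between replicates. ATP5F1A was at rank 548 and ATP5F1E at 819, and the summit beyond the 3′ end of ATP5F1D was at 294. The 4 had a median fold of 14.8, and the 3 without ATP5F1D a median of 11.8, beside a median of 13.7 and quartiles of 10.3 and 21.9 over the 863. The 2 medians lie on either side of that of all genes, so neither places these genes above or below it. The rank plot marks each of them on the curve of all genes.

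Within 50 kb, 6 of the 8 genes (75%) had a reproducible summit, beside 33.7% of all genes. With all matched peaks, 6 of the 8 had a summit within 1 kb of a start or counted end, the added ones being ATP5F1C and ATPAF1, beside 8.62% of all genes. With ATP5F1D taken by its lower end the count is 5 (62.5%), in the matched list and in that of each replicate. The same 6 were counted in the list of replicate 1, beside 12% of all genes, and in that of replicate 2, beside 10.7%. For summits within 50 kb in a single list, the counts were 7 of 8 in replicate 1, beside 60% of all genes, and 8 of 8 in replicate 2, beside 56.9%. More than 50% of all genes pass this last criterion.

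The rest of the enzyme and a related pump were set beside these counts. The 15 genes listed for the membrane part and outer stalk of ATP synthase include the c ring subunits, through which the protons pass. They also include TMEM70 and TMEM242, which are assembly factors and not subunits. TMEM242 is among the genes counted below with all matched peaks. Of these 15, 2 had a reproducible summit at a start or counted end (13.3%). ATP5MC2 had one at its start, with a mean fold of 15.3 ± 2.32, and ATP5MC3, with 85.1 ± 1.23, has no start in the table and was counted by either end. With all matched peaks the count was 11 of the 15 (73.3%), 2 of them by either end, beside 6 of 8 (75%), or 5 of 8 with ATP5F1D by its lower end, for the head and its assembly. Within 50 kb, 7 of the 15 (46.7%) had a reproducible summit. The V1 head of the vacuolar proton pump is built on the same plan as F1 but sits on lysosomes and other acidic compartments. Its list includes alternative genes for some subunits, whereas each F1 subunit here has 1 gene, so the shares are not like for like. Of its 13 genes, 0 had a reproducible summit at a start or counted end, 1 had a matched one (ATP6V1A by either end, 7.69%) and 3 had a reproducible summit within 50 kb (23.1%). The bar plot of gene shares sets the lists side by side. No test of these shares was made, since the lists were chosen with results of these data known.

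**Figure D5:**
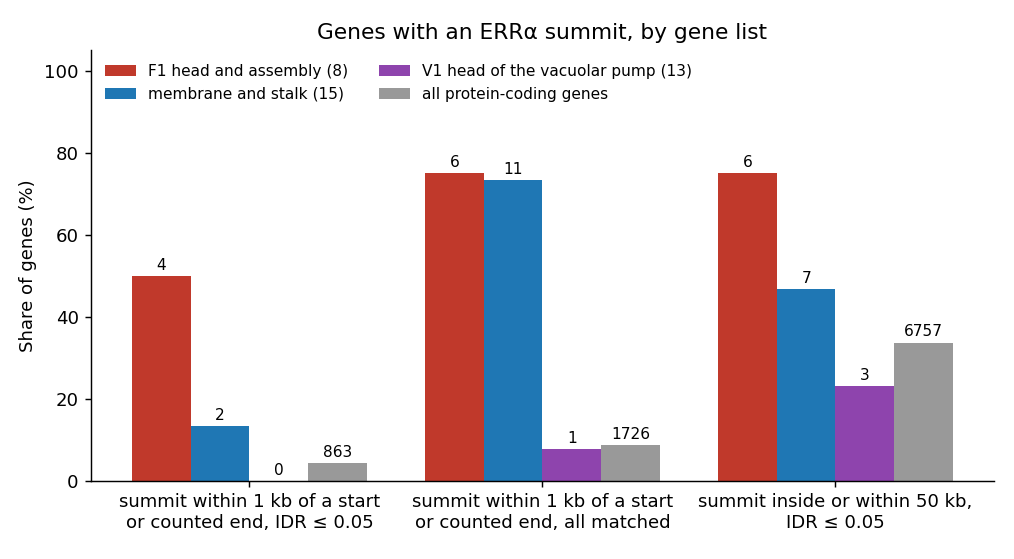
Share of genes, in percent, with an ERRα summit by 3 criteria, for the 8 F1 head and assembly genes, 15 membrane and stalk genes, 13 V1 head genes and all 20033 protein-coding genes. Numbers above the bars are counts of genes. By matched peaks at a start or counted end, the F1 list stands at 75% (62.5% with ATP5F1D by its lower end), the membrane and stalk list at 73.3%, the V1 list at 7.69% and all genes at 8.62%.

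The replicates shared most peaks near the 8 genes. Of 25 replicate 1 peaks, 23 shared at least 1 bp with a peak of replicate 2 (92%, exact Clopper-Pearson 95% interval 74.0% to 99.0%), beside 71.9% of the whole replicate 1 list. Of 26 replicate 2 peaks, 24 overlapped one of replicate 1 (92.3%, interval 74.9% to 99.1%), beside 79.8% of that list. The intervals cover counting error only, and neighbouring peaks are not independent. With a reciprocal overlap of 50% of both peaks the share was 72%, beside 67.5% of the list. At the 15 reproducible peaks the replicates' summits lay 5 to 83 bp apart, with a median of 27 bp, and at the 23 matched peaks up to 483 bp.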

How the data were processed

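ERRα binding was measured by ChIP-seq in MDA-MB-231 cells, with 2 ChIP replicates and 2 inputs. Per the submitters' processing notes, the build was hg38, with MACS2 2.2.6, Bowtie2 2.3.5, Trim Galore 0.6.5, SAMtools, Picard and deepTools as tools, whose settings the sources used here do not give. The fold enrichment of each peak is a ratio that the authors deposited in narrowPeak lists, 1 per replicate, as are its −log10 p and −log10 q values. The deposited score of a matched peak grows as its IDR falls, and the list was not filtered on it. The inputs enter through these values and have none of their own here.

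Summits on chromosomes 1 to 22, X and Y were set against gene intervals and start sites of RefSeq GRCh38.p14, the same assembly as hg38. Those on other contigs (371 peaks in replicate 1, 358 in replicate 2 and 272 matched) were left out. Start sites came from the promoter table for 15842 of 20033 protein-coding genes. Either end was counted for the other 4191, since strand was not used for them. A gene was counted at its start if a summit lay within 1 kb, and nearby if a summit lay inside it or within 50 kb. Motifs were searched on both strands in windows of 300 bases. Genes named are the 8, the gene with the nearest start to each of their reproducible summits and any other within 1 kb of one, 4 rank neighbours of ATP5F1B and the highest of the comparison lists. KIN, CTSZ, CIRBP, FAM174C, DRG2, ATP6V1A, TMEM70 and TMEM242, or peaks near them, were chosen for naming once values were known. The genes and lists were chosen with earlier results of these data known. Counting was checked on simulated data with known positions. Python 3.11.15, pandas 2.3.3, numpy 2.4.6 and scipy 1.17.1 were used. Alternatives were an IDR of 0.01, all matched peaks, each replicate's own list, a −log10 q of at least 5, other windows and overlaps, and other motifs. Read counts were not used, so intervals do not cover read depth, and the SD of 2 replicates measures the spread between these cultures alone.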

Additional observations from a re-analysis of the deposited data

How the results depend on the processing

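The number of summits inside or within 50 kb of the 8 genes depended on the list. It was 15 with reproducible peaks, 12 at an IDR of 0.01, 23 with all matched peaks, 26 without replicate 1, 25 without replicate 2 and 11 with a window of 10 kb. The values without a replicate come from the other replicate's whole list, so they drop the IDR threshold too. The ERR response element was found in 0 genes, the hexamer AGGTCA in 1 and the element with up to 1 mismatch in 2, the last search having been chosen after the data were seen. The other 28 of 33 alternative counts stayed within 1.5 times the count reported. A mean of 2 replicates always lies within 1 SD of each, so the 8 folds from a single replicate show nothing of stability. Genes with a reproducible summit at a start or counted end numbered 4, and 3 at an IDR of 0.01 (without ATP5F1E), with either gene end, with the outermost start alone (both without ATP5F1A), or with ATP5F1D by its lower end, the last 2 also chosen after the data were seen. They numbered 6 without replicate 1, without replicate 2 and with all matched peaks. No paired analysis was possible because the inputs have no values of their own in the peak lists. Folds rest on the authors' local background, whose read depth was not available here, and with 2 ChIP libraries each SD has a single degree of freedom.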
